A study of Mus musculus with 79 samples.

Results

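The Fcγ receptor genes were 6 of the 23361 genes in the count tables: the activating receptors Fcgr1, Fcgr3 and Fcgr4, the inhibitory receptor Fcgr2b, the shared signaling chain Fcer1g and the neonatal receptor Fcgrt. They were chosen by symbol, 1 row a gene. All 6 were found in all 3 tables. All 6 also passed the filter on low values, which asked for at least 5 CPM (counts per 1000000 counts of the library) in at least 6 of the libraries compared, in each of the 20 comparisons made.

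The study repaired a cut nerve in mice by suturing the proximal stump of the common peroneal nerve to the distal stump of the tibial nerve, either at once or after an 8-week delay in which the distal stump had no axons. All animals were S100β-eGFP mice, in which eGFP marks Schwann cells. The study's methods list C57BL/6J as a further strain and do not state the background of the eGFP line. The animals repaired at once had been given a sham incision 8 weeks earlier. Macrophages and Schwann cells were sorted from the tissue bridging the stumps on day 5 or day 14 after repair, and whole distal stump was taken on day 5 only. The macrophage gate required F4/80, CD14, CD16/32 and CD11b, and the Schwann cell gate required eGFP and absence of those 4 antigens, so that the products of Fcgr3 (CD16) and Fcgr2b (CD32) themselves defined the sorts.

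In all, 79 libraries came from 32 mice of both sexes, each library from the tissue of 1 animal. The macrophage libraries numbered 9 delayed and 8 immediate on day 5, and 7 delayed and 8 immediate on day 14. The Schwann cell libraries numbered 9 delayed and 7 immediate on day 5, and 7 delayed and 8 immediate on day 14. The distal stump gave 9 delayed and 7 immediate libraries. Replicate numbers 1 to 4 were males and 5 to 9 females throughout, so that sex and anything else that went with the replicate number cannot be told apart. Total counts were (in units of 1000000) 14.9 to 28.5 per macrophage library, 11.6 to 30.8 per Schwann cell library and 3.90 to 9.21 per stump library. The 10 groups are named below by cell or tissue, day and repair.

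Fcγ receptors bind the constant part of immunoglobulin G and couple antibody-coated material to the cell that carries them. Fcgr1, Fcgr3 and Fcgr4 encode receptors that signal through the tyrosine motif of their partner, the FcRγ chain encoded by Fcer1g, which recruits the kinase Syk. Fcgr2b encodes the receptor with an inhibitory motif, which recruits the phosphatase SHIP1, the product of Inpp5d. Fcgrt encodes the heavy chain of FcRn, which pairs with β2-microglobulin, binds immunoglobulin G inside acidic vesicles and returns it to the cell surface. In injured nerve, macrophages and antibody both take part in clearing myelin debris.

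On the GRCm38 build, to which the authors' mm10 alignment corresponds, 4 of the genes lie close together on chromosome 1. Fcgr2b lies at chr1:170958617-170976547 on the minus strand, Fcgr4 at chr1:171018920-171029761 on the plus strand, Fcgr3 at chr1:171051174-171064935 on the minus strand and Fcer1g at chr1:171229572-171234365 on the minus strand. Fcgr1 lies at chr3:96282909-96293969 and Fcgrt at chr7:45092990-45103851, both on the minus strand. Fcgr2b overlaps the antisense gene Gm38204 and Fcgrt the gene Gm45669, and the sorted-cell libraries did not keep strand.

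Fcgr2b and Fcgr3 share a stretch of coding sequence longer than a read, which is shown because it bears on every comparison of these genes. The stretch has 129 bases and spans exons 3 and 4 of each gene, in the transcripts Fcgr2b-201 and Fcgr3-201. The 27 bases of exon 4 are in capitals.

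Fcgr2b and Fcgr3 shared stretch: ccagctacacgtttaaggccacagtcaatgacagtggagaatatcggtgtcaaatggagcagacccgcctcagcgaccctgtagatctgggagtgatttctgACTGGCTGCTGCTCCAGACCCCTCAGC

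Of the 3821 stretches of 85 bases (the read length) in Fcgr2b transcripts, 74 (1.94%) also occur in Fcgr3, and they make up 4.55% of the 1627 such stretches in Fcgr3. Reads from there could have been counted for either gene, so the levels of both are uncertain. The shares of stretches do not bound the error, which also depends on the levels, and Fcgr3 was the higher of the pair per kilobase in macrophages. A further part of Fcgr2b occurs elsewhere in the transcriptome, which brings the share of its stretches found in any other gene to 7.67%. No 85-base stretch of Fcgr1, Fcgr4, Fcer1g or Fcgrt occurs in another gene.

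The 250 bases before the RefSeq start (assembly GRCm38.p6) are shown for Fcgr1 and Fcgr4, since these receptors varied together among macrophage libraries. Capitals mark matches to GAGGAA, the core of sites bound by the myeloid factor PU.1, read here on the opposite strand as TTCCTC, and to TTCNNNGAA, the core of sites bound by STAT factors. Both motifs were searched on both strands, and the matches did not overlap each other. The Fcgr1 window is chr3:96293970-96294219 on the minus strand and the Fcgr4 window is chr1:171018676-171018925 on the plus strand.

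Fcgr1 promoter: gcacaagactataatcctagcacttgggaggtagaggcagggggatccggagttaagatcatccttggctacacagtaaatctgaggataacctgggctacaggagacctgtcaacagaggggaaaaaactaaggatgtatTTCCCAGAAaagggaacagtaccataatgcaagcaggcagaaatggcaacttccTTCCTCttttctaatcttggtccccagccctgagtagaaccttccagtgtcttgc
Fcgr4 promoter: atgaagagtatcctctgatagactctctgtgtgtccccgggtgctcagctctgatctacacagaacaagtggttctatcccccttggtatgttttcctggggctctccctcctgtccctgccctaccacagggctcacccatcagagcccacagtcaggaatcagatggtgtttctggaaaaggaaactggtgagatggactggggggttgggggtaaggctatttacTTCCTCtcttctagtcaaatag

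GAGGAA was found once each in the windows of Fcgr1, Fcgr3 and Fcgr4, and 23.1% of 27025 mouse promoters hold it. TTCNNNGAA was found once, in the Fcgr1 window, 109 bases before the start, and 7.18% of promoters hold it. These letters were not found in the windows of Fcgr2b, Fcer1g and Fcgrt. A match describes the letters and not a bound site.

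The labels of the sorted cells were first checked against marker genes. The macrophage libraries carried all 12 macrophage markers, with a summed level of 19971 to 32589 CPM on day 5 and 29707 to 42169 CPM on day 14. Of other cells that carry Fc receptors, the summed natural killer cell markers reached at most 1.79 CPM in them, the summed mast cell markers at most 5.42 CPM and the summed B cell markers 0.89 to 15.1 CPM, with 1 of 6 B cell markers detected in every library and Pax5 at 0. Neutrophil markers summed to 111 to 252 CPM on day 5 and 75.3 to 256 CPM on day 14. Dendritic cell markers, 12 genes, summed to 1312 to 5499 CPM on day 5 and 7964 to 20304 CPM on day 14 in the macrophage libraries. The libraries labelled Schwann cell went against their label in their leading markers. Of their Schwann cell markers, 8 of 9 tested on day 5 and 9 of 10 on day 14 were higher than in macrophage libraries, and the sum of all 10 ran from 158 to 1305 CPM (median 348) on day 5 and from 478 to 3600 CPM (median 856) on day 14, beside 1441 to 3351 CPM in immediate stumps. However, the 12 dendritic cell markers summed to a median of 35527 CPM on day 5 and 35176 CPM on day 14, the 6 fibroblast markers to a median of 892 CPM on day 5 and 4318 CPM on day 14, and the macrophage markers to 263 to 13048 CPM on day 5. Neutrophil markers summed to 9.44 to 200 CPM (median 27.9) on day 5 and 10.9 to 8155 CPM (median 32.4) on day 14, where the highest library of the females held 1344 CPM and that of the males 8155 CPM. Natural killer cell markers summed to 26.7 to 169 CPM over both days and mast cell markers to 53.1 to 741 CPM, with 1 of 6 mast cell markers detected in every library and Mcpt4 and Tpsb2 at 0. These libraries are therefore called libraries labelled Schwann cell here, and a value in them is not read as a level in Schwann cells.

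Macrophage libraries held every member at 50 CPM or more in every library. In order of level per kilobase of exon (CPM per kb), Fcer1g came first in all 17 libraries of day 5 and all 15 of day 14. Fcgr3, a low-affinity activating receptor, came second in 16 of 17 and in 15 of 15. On day 5 the mean per-length level over 17 libraries was 1616 CPM per kb for Fcer1g (SD 272). It was 396 for Fcgr3 (SD 95.1) and 234 for Fcgrt (SD 116), and Fcgrt came second in 1 library. Next came 84.3 for Fcgr2b (SD 37.0), 84.1 for Fcgr4 (SD 30.0) and 74.8 for Fcgr1 (SD 17.8). Fcer1g stood apart from the others, while the means of the last 3 lay within 1 SD of each other. The last place fell to Fcgr1 in 10 libraries and to Fcgr2b in 7. On day 14, Fcgr1, the high-affinity receptor, was last in 14 of 15 libraries, at a mean of 56.6 CPM per kb.

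In CPM, macrophage Fcer1g on day 5 was 1213 ± 192 (SD, n = 9) after delayed and 1204 ± 229 (SD, n = 8) after immediate repair. Fcgr3 was 651 ± 163 and 638 ± 156, Fcgr2b was 330 ± 153 and 311 ± 136, and Fcgrt was 425 ± 201 and 407 ± 225 in the same groups. Fcgr1 was 204 ± 51.2 and 182 ± 39.4, and Fcgr4, the receptor for IgG2a and IgG2b, was 107 ± 41.6 and 104 ± 35.4. The repair groups overlapped for every member, and relative to its mean the spread within a repair group was widest for Fcgr2b and Fcgrt.

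The whole distal stump, which holds all cells of the degenerating nerve, had another order. Fcgrt came first per kilobase in 10 of 16 stump libraries, Fcer1g in 5 and Fcgr3 in 1. The mean levels were 106.2 CPM per kb for Fcgrt and 105.9 for Fcer1g, which did not differ beyond their spread, followed by 73.7 for Fcgr3, 51.5 for Fcgr4, 51.3 for Fcgr1 and 44.2 for Fcgr2b. Stump libraries were made from total RNA after removal of ribosomal RNA and sorted cells from amplified cDNA, so no test was made between them. In bulk stump, fewer cells of a type and less RNA per cell cannot be told apart.

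**Figure D1:**
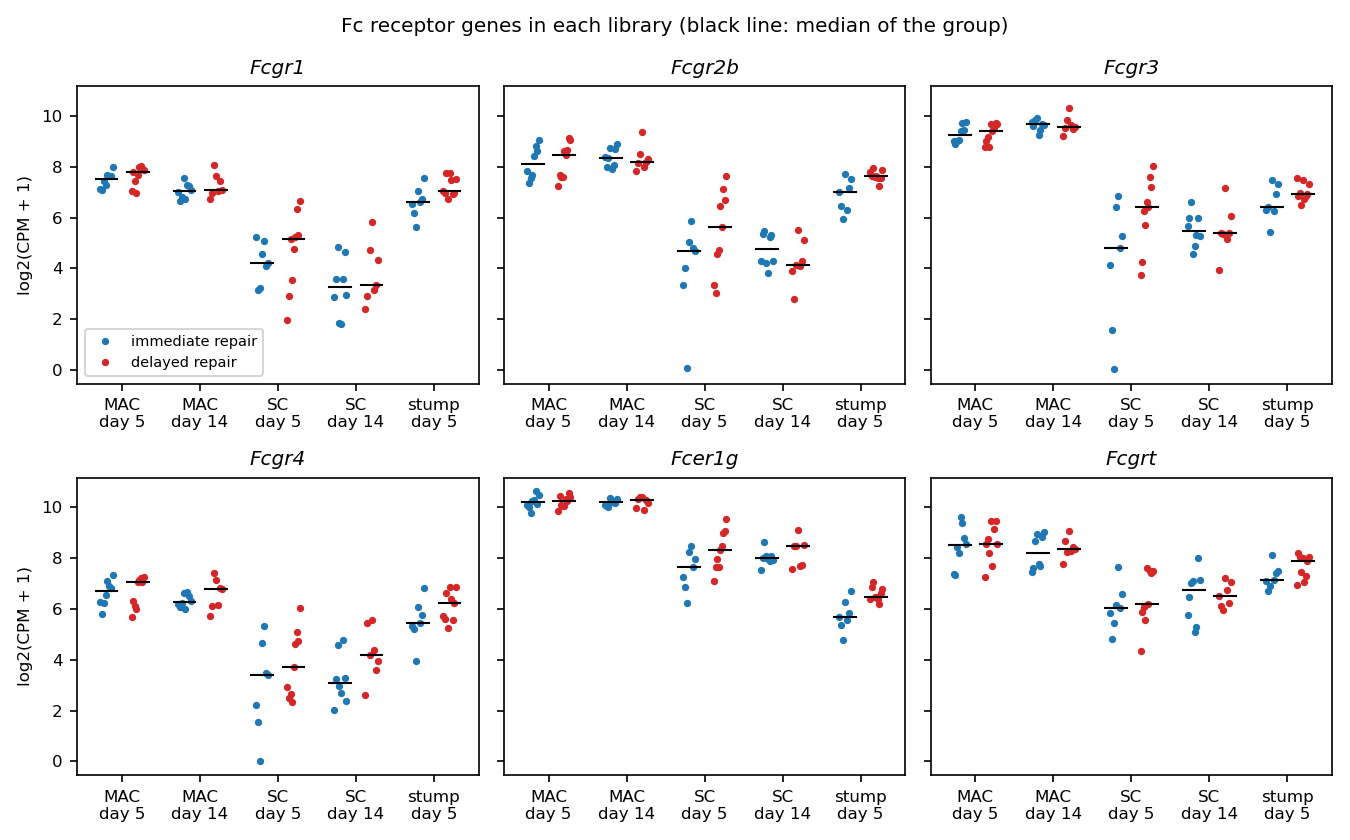
Level of each Fc receptor gene in each of 79 libraries, as log2(CPM + 1) on the vertical axis, for macrophage (MAC), labelled Schwann cell (SC) and distal stump libraries on the horizontal axis. Points are libraries coloured by repair group and black lines are group medians; Fcer1g sits highest in the macrophage libraries, and the libraries labelled Schwann cell lie lower and spread most.

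The first question of the design was whether these genes differed between delayed and immediate repair. In macrophages, no member passed the test on either day. On day 5, 0 of 6 members were called at an adjusted p under 0.05 (edgeR's quasi-likelihood test, Benjamini-Hochberg over all genes), where 0.0357% of 8409 genes tested were called. No member had an unadjusted p under 0.05, and DESeq2 called 0 of 6. The log2 differences between delayed and immediate repair lay between -0.08 (SE 0.11) for Fcer1g and 0.08 (SE 0.13) for Fcgr1. On day 14, 0 of 8589 genes were called by edgeR, with 190 genes at an unadjusted p under 0.05, 0 members among them and 0 members called by DESeq2. The differences with the largest size were 0.38 (SE 0.21, adjusted p = 1) for Fcgr4, at 52.5 to 172 CPM (median 109) after delayed and 62.2 to 101 CPM (median 76.5) after immediate repair, and 0.30 (SE 0.19) for Fcgr1. None of the 6 had a repair difference that itself differed between the days (edgeR interaction, 0.0223% of 8949 genes called, 0 members at an unadjusted p under 0.05 and 0 called by DESeq2).

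In the distal stump, 2 of 6 members were higher after delayed repair, Fcer1g and Fcgr2b, where 26.3% of 12229 genes were called in either direction and 12.8% as higher. Fcer1g was 72.4 to 132 CPM (median 88.2) in the 9 delayed stumps and 26.4 to 105 CPM (median 50.6) in the 7 immediate stumps. Fcgr2b was 149 to 248 CPM (median 196) in the delayed and 60.4 to 207 CPM (median 126) in the immediate stumps. The groups overlapped for both genes, through immediate replicates 4 and 8, although all 9 delayed stumps lay above the immediate mean of each gene. The log2 difference was 0.77 (SE 0.22, adjusted p = 0.0170 by edgeR) for Fcer1g and 0.69 (SE 0.22, adjusted p = 0.0262) for Fcgr2b.

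The other 4 members did not pass in the stump, and their log2 differences were 0.60 (SE 0.24, adjusted p = 0.0753) for Fcgr1, 0.54 (SE 0.34) for Fcgr4, 0.41 (SE 0.23) for Fcgrt and 0.36 (SE 0.25) for Fcgr3. The call of Fcgr2b was lost with no filter on low counts (adjusted p = 0.0566) and without delayed replicate 3 (adjusted p = 0.0545), immediate replicate 2 (0.0699) or immediate replicate 6 (0.0668), and Fcgr1 was called without immediate replicate 8 (0.0145) and Fcgrt without immediate replicate 4 (0.0442). Markers of other cells moved with the repair groups in the same stumps. The macrophage markers summed to 4112 to 6990 CPM after delayed and 1873 to 6601 CPM after immediate repair, with 3 of 12 higher, 0 lower and a median log2 difference of 0.36. Among the other lists, 5 of 10 tested dendritic cell markers, 5 of 6 endothelial markers, 1 of 5 natural killer cell markers and the 1 tested T cell marker were higher, 8 of 9 Schwann cell markers were lower, and of 5 mast cell markers 4 were lower and 1 higher. Natural killer cell markers summed to 10.5 to 64.2 CPM after delayed and 2.72 to 49.2 CPM after immediate repair, and mast cell markers to 63.1 to 100.3 CPM and 57.0 to 121 CPM. The part of these other lists in the member differences was not tested. With the mean macrophage marker level of each stump as a covariate, the Fcer1g difference was 0.34 (adjusted p = 0.0457), the Fcgr2b difference 0.30 (adjusted p = 0.0767) and the Fcgr1 difference 0.20, while those of Fcgr3 (-0.066), Fcgr4 (-0.015) and Fcgrt (-6.2e-05) changed sign.

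Many genes that act downstream of the receptors also passed the test in the stump. The gene lists were chosen with earlier results of these data known, so their shares are not independent of the data. Of 23 genes of Fc receptor signaling, 15 were higher in delayed stumps and 2 were lower, where 12.8% of all genes were called as higher and 13.5% as lower, and the list's median log2 difference was 0.58 against 0.02 over all genes tested. Syk, the kinase recruited by FcRγ, differed by 0.73 (SE 0.19, adjusted p = 0.0090), and Inpp5d, whose product SHIP1 acts for the inhibitory receptor, by 0.61 (SE 0.13, adjusted p = 0.0021). Vav3, a guanine nucleotide exchange factor, differed by 0.70 (SE 0.13) and Plcg2, a phospholipase, by 0.59 (SE 0.12). The 2 lower genes were the phosphatase gene Ptpn11, at -0.42 (SE 0.07), and the adaptor gene Gab2, at -0.43 (SE 0.10).

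Of 29 genes of the phagocytosis machinery, 8 were higher and 2 lower in delayed stumps, beside the same 12.8% and 13.5% over all genes, with a median difference of 0.20. The higher genes included Cybb, which encodes a part of the phagocyte oxidase, at 0.65 (SE 0.18). Myo10, which encodes a myosin of filopodia, was lower at -0.85 (SE 0.13). Of 6 tested genes for other immunoglobulin receptors and their partners, 2 were higher, the cytosolic receptor gene Trim21 at 0.74 (SE 0.20) and the Fc receptor-like gene Fcrls at 0.80 (SE 0.23). In the macrophage libraries, 0 genes of these 3 lists were called between repair groups on either day.

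**Figure D2:**
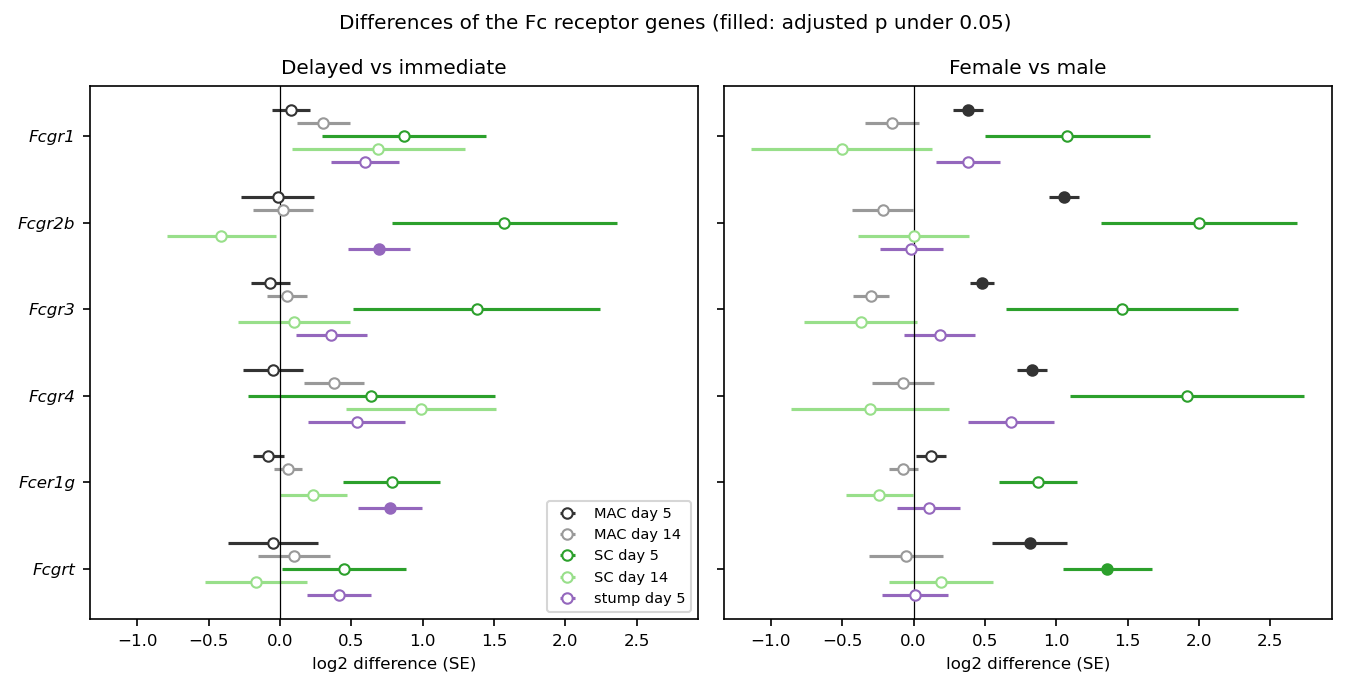
Log2 difference (horizontal axis, bars are SE) of the 6 Fc receptor genes (vertical axis) by comparison, with filled points for an adjusted p under 0.05. Among the repair comparisons, Fcer1g at 0.77 and Fcgr2b at 0.69 in the distal stump are filled.

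The second question was how the genes differed between day 5 and day 14. In macrophages after immediate repair, Fcgr1 fell, from 136 to 251 CPM (median 185) on day 5 to 100.3 to 185 CPM (median 131) on day 14. The ranges overlapped, with a log2 difference of -0.60 (SE 0.13, adjusted p = 0.0052 by edgeR), and 11.3% of 8507 genes were called. Fcgr4 in the same groups was 55.3 to 161 CPM (median 103) on day 5 and 62.2 to 101 CPM (median 76.5) on day 14, with a difference of -0.51 (SE 0.17, adjusted p = 0.0526) that missed the threshold. With DESeq2 in place of edgeR it passed (adjusted p = 0.0206), as it did with sex as a covariate (0.0411). These groups held 4 females and 4 males on each day. Mean Fcgr1 went from 214 to 135 CPM in females and from 150 to 131 CPM in males. Mean Fcgr4 went from 132 to 82.9 CPM in females and from 74.9 to 78.1 CPM in males. Over both repair groups, the sex by day interaction of Fcgr1 was -0.52 (SE 0.22, adjusted p = 0.161 by edgeR). After delayed repair, 0 of 6 members were called by edgeR or DESeq2 and 0 had an unadjusted p under 0.05, where 6.41% of 8529 genes were called, and the Fcgr1 difference was -0.38 (SE 0.19, adjusted p = 0.255; 0.0490 without delayed day 14 replicate 3).

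Of 23 signaling genes in macrophages, 2 were higher and 0 lower on day 14 in each repair group. Over all genes, 5.33% were called as higher and 6.01% as lower after immediate repair, and 3.28% and 3.13% after delayed repair. Blnk, which encodes an adaptor of Syk signaling, was higher on day 14 by 0.76 (SE 0.14) after immediate and 1.18 (SE 0.20) after delayed repair. Of 28 phagocytosis genes, 6 were lower in each repair group and 1 (immediate) or 2 (delayed) higher, and the others did not pass. Arpc2, a subunit gene of the Arp2/3 complex that branches actin, was lower by -0.35 (SE 0.07) and -0.41 (SE 0.08), and Cfl1, the gene of the actin-severing protein cofilin, by -0.33 (SE 0.08) and -0.34 (SE 0.09). Myo10 was higher by 1.79 (SE 0.29) and 1.86 (SE 0.25). Cd300lf, a receptor gene of the CD300 family, was lower by -1.53 (SE 0.25) and -1.03 (SE 0.25). The dendritic cell markers rose over the same interval, with 4 of 7 tested higher after immediate repair and 0 lower, while 1 of 12 macrophage markers was higher and 3 lower. Of 2 tested neutrophil markers 1 was lower, with a sum of 122 to 229 CPM on day 5 and 100.3 to 256 CPM on day 14, and of 2 tested endothelial markers 1 was lower. The part of those markers in the fall of Fcgr1 was not tested.

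A difference between the sexes was seen in the macrophage values of day 5 and was then tested, with repair as a covariate, in every kind of library. It is thus not independent of the values it describes. In day 5 macrophages, 5 of 6 members were higher in females, where 25.1% of 8409 genes were called in either direction and 13.8% as higher. Fcgr2b showed the widest gap. Its level in males was 151, 202, 192 and 192 CPM after delayed repair and 225, 163, 190 and 202 CPM after immediate repair. In females it was 397, 349, 408, 553 and 532 CPM after delayed repair and 340, 443, 395 and 529 CPM after immediate repair. All 9 female libraries lay above all 8 male libraries, and the log2 difference was 1.05 (SE 0.11, adjusted p = 2.3e-06 by edgeR), which ranked 11 of 8409 genes by p.

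Fcgr4 was 50.5 to 94.1 CPM (median 71.0) in males and 113 to 161 CPM (median 137) in females, without overlap, and its log2 difference was 0.83 (SE 0.11, adjusted p = 4.5e-05). Fcgr3 was 436 to 580 CPM (median 514) in males and 669 to 862 CPM (median 816) in females, again without overlap, with a difference of 0.48 (SE 0.08, adjusted p = 0.00062). Among all 8409 genes, 3.70% did not overlap between the sexes. Fcgr1 was 123 to 222 CPM (median 146) in males and 198 to 261 CPM (median 235) in females, with a difference of 0.38 (SE 0.10, adjusted p = 0.0117) and some overlap. Fcgrt was 153 to 433 CPM (median 295) in males and 205 to 791 CPM (median 564.1) in females, with a difference of 0.81 (SE 0.27, adjusted p = 0.0298). The Fcgrt call was the least firm of the 5. It was lost with no filter on low counts (adjusted p = 0.0502) and without any 1 of 7 of the 17 libraries (delayed replicates 1, 5 and 8 and immediate replicates 1, 2, 5 and 6), with adjusted p up to 0.0626.

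Fcer1g, the chain that the activating receptors share, was 873 to 1395 CPM (median 1079) in males and 1056 to 1599 CPM (median 1294) in females. Its log2 difference was 0.12 (SE 0.10, adjusted p = 0.406) after scaling by trimmed means of M values (TMM). With scaling by library size alone, which moved the median difference of all genes from 0.03 to 0.18, it was 0.27 and passed (adjusted p = 0.0491).

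The sex difference was present within each repair group. Within delayed repair the sexes did not overlap for 3 members (Fcgr2b, Fcgr3 and Fcgr4), where 16.0% of genes did not overlap. Within immediate repair they did not overlap for 5, where 15.6% did not. Both held in the same direction for 3 members, against 5.72% of all genes. The ratio of the activating to the inhibitory gene of the pair that shares sequence was also computed, as a description with no test. The ratio of Fcgr3 to Fcgr2b, each per kilobase, was 5.32 to 7.07 (mean 6.23 ± 0.65, SD, n = 8) in day 5 males and 3.56 to 4.89 (mean 4.19 ± 0.48, SD, n = 9) in day 5 females. On day 14 the ratio was 6.01 ± 0.84 (SD, n = 8) in males and 5.64 ± 1.09 (SD, n = 7) in females.

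**Figure D3:**
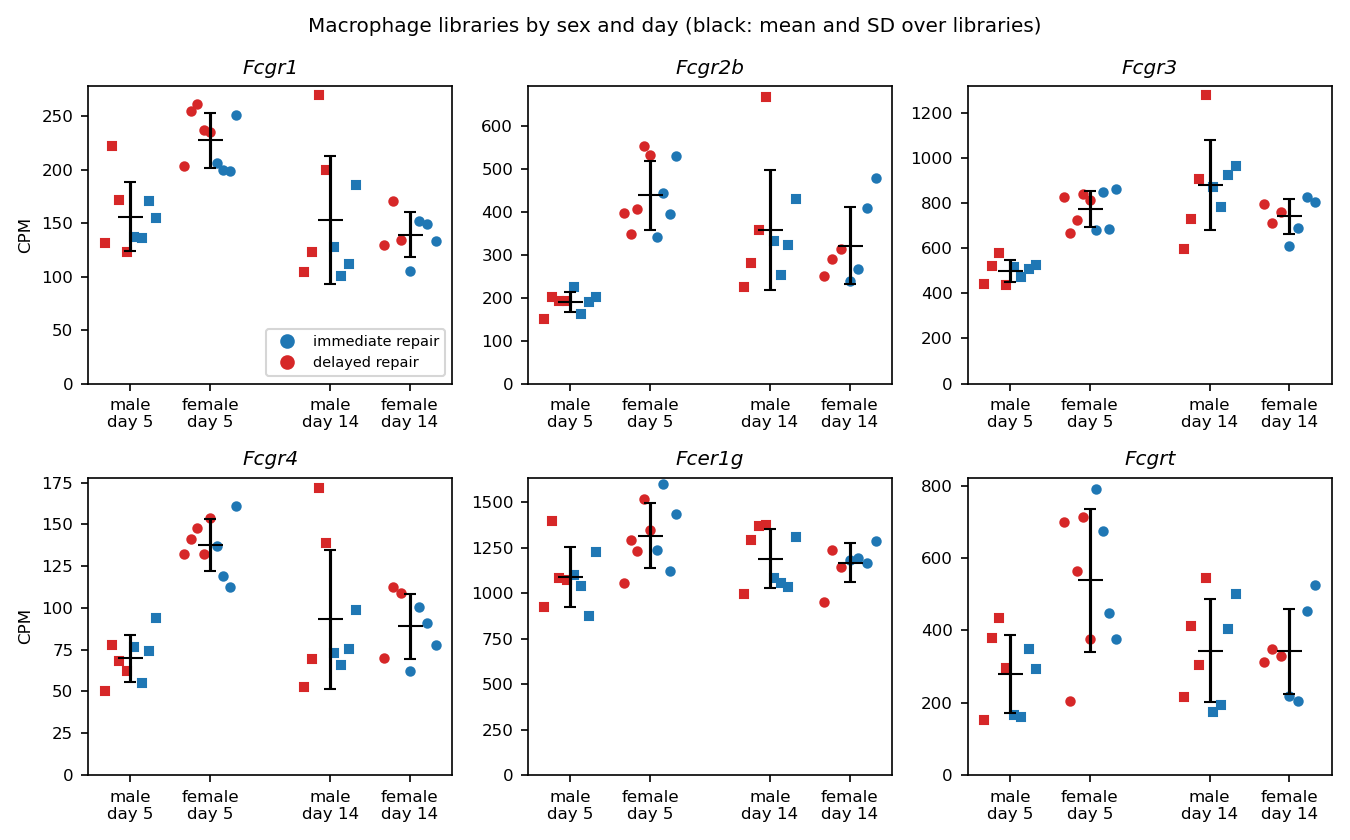
Level in CPM (vertical axis, from 0) of the 6 Fc receptor genes in macrophage libraries by sex and day (horizontal axis), with points coloured by repair group and black marks for the mean and SD over libraries. On day 5 the 9 female libraries lie above the 8 male libraries for Fcgr2b, Fcgr3 and Fcgr4, and on day 14 the sexes overlap for all 6 genes.

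On day 14 no member passed the test between the sexes in macrophages. Here 0 of 6 members were called by edgeR or DESeq2, where 0.0466% of 8589 genes were called by edgeR, and 1 member, Fcgr3, had an unadjusted p under 0.05 (0.0321, a log2 difference of -0.30). Fcgr2b was 225 to 667 CPM (median 327) in 8 males and 239 to 478 CPM (median 290) in 7 females, with a difference of -0.22 (SE 0.21), and Fcgr4 differed by -0.08 (SE 0.22). The change in the sex difference between the days was itself tested. It was called for 2 members, Fcgr2b at -1.26 (SE 0.24) and Fcgr3 at -0.77 (SE 0.15), each with an adjusted p of 0.0190 by edgeR, where 1.52% of 8949 genes were called. Fcgr4, at -0.90 (SE 0.24, adjusted p = 0.0518), missed the threshold and passed with DESeq2 (0.0143). Median Fcgr2b was 192 CPM on day 5 and 327 CPM on day 14 in males, and 408 and 290 CPM in females. Without delayed day 14 replicate 4, a male with the highest Fcgr2b level of all macrophage libraries (667 CPM), the Fcgr2b change was -1.08 (adjusted p = 0.0102) and 53 genes were called in place of 136.

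Other measures were compared between the sexes in the same day 5 macrophage libraries. Macrophage markers summed to 19971 to 32589 CPM in females and 25422 to 31907 CPM in males, with 5 of 12 higher and 2 lower in females. Dendritic cell markers summed to 1896 to 5499 CPM in females and 1312 to 3890 CPM in males, with 0 of 7 tested higher and 1 lower. Neutrophil markers summed to 111 to 252 CPM in females and 137 to 240 CPM in males, with 0 of 3 tested higher and 1 lower. Schwann cell markers, at 85.9 to 166 CPM in females and 48.5 to 100.5 CPM in males, were higher for 2 of 2 tested, and of the B cell markers the 1 tested was higher, with a sum of 4.43 to 8.98 CPM in females and 0.89 to 3.61 CPM in males while Pax5 was at 0 in both. Total counts did not pass a test (median, in units of 1000000, 21.6 in 9 females and 23.2 in 8 males, exact permutation test, 2-sided p = 0.0965). The part of these measures in the sex difference was not tested, and the sources used here give no sorting or library dates.

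Among the downstream genes in day 5 macrophages, 5 of 23 signaling genes were higher and 2 lower in females, where 13.8% of all genes were called as higher and 11.3% as lower. Inpp5d was higher by 1.0 (SE 0.20, adjusted p = 0.0014) and Ptpn6, the gene of the phosphatase SHP-1, by 0.58 (SE 0.15), both inhibitory in this pathway. Pik3cd, a catalytic subunit gene of PI3 kinase, was higher by 1.03 (SE 0.20), Btk, a kinase gene, by 0.54 (SE 0.16) and Tyrobp, the adaptor gene for DAP12, by 0.29 (SE 0.09). The adaptor genes Lat2 and Gab2 were lower, by -0.58 (SE 0.10) and -0.46 (SE 0.13). Of 28 phagocytosis genes, 5 were higher and 4 lower, among them the oxidase subunit genes Ncf1, at 0.84 (SE 0.15), and Ncf4, at -0.36 (SE 0.11). The list medians, -0.07 for signaling and 0.06 for phagocytosis against 0.03 for all genes, stood near 0, while that of the 6 members was 0.65. Of the other receptors, Cd300lf was higher by 0.85 (SE 0.20) and was the 1 of 8 called.

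In distal stumps, 0 of 6 members were called between the sexes by edgeR or DESeq2, where 0.0654% of 12229 genes were called by edgeR. Stump Fcgr4 differed by 0.68 (SE 0.30, adjusted p = 0.328) and was the 1 member with an unadjusted p under 0.05 (0.0381), and Fcgr2b differed by -0.02 (SE 0.22).

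Libraries labelled Schwann cell held all 6 members at lower levels than macrophages. Fcgr3 and Fcgr2b, whose products were sorted on, are described only. Fcgr3 averaged 76.3 CPM in 16 libraries on day 5 and 51.9 CPM in 15 on day 14, against 645 and 818 CPM in macrophages, and Fcgr2b averaged 49.996 and 24.999 CPM against 321 and 341 CPM. The other 4 were tested, and all 4 were lower on both days, where 29.7% of 10087 genes on day 5 and 27.6% of 10596 genes on day 14 were called as lower. The gates selected for or against 4 macrophage antigens, and all 12 macrophage markers were also lower on both days. The tests of these 4 genes are thus not independent of the sort. Fcgr1 was lower by -3.02 (SE 0.32, adjusted p = 5.4e-10 by edgeR) on day 5 and -3.72 (SE 0.35) on day 14. Fcgr4 was lower by -2.96 (SE 0.45) and -2.94 (SE 0.31), Fcer1g by -2.37 (SE 0.20) and -2.39 (SE 0.13) and Fcgrt by -2.41 (SE 0.29) and -2.11 (SE 0.23). Both sorts came from the same animals, and all 4 kept their calls on both days with the animal as a block.

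The signaling genes went in both directions in this comparison. On day 5, 6 of 23 were higher and 10 lower in the libraries labelled Schwann cell, where 35.6% of all genes were called as higher and 29.7% as lower. Syk was lower by -1.13 (SE 0.13), whereas Fyn, a kinase gene of the Src family, was higher by 2.98 (SE 0.11) and Pik3r1, a regulatory subunit gene of PI3 kinase, by 3.18 (SE 0.18). Of 9 tested genes for other immunoglobulin receptors and their partners, 5 were lower and 2 higher on day 5. The lower genes included Cd300ld at -3.46 (SE 0.52), Fcrls at -3.34 (SE 0.81) and Cd300lf at -2.59 (SE 0.54), and the higher genes were the Fc receptor-like gene Fcrla at 4.32 (SE 0.84) and B2m, the gene of the light chain of the neonatal receptor, at 0.30 (SE 0.08). The phagocytosis list had 9 of 29 higher and 10 lower.

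Within the libraries labelled Schwann cell, the levels of all 6 members went with the macrophage markers on day 5. Across 16 libraries, Pearson's r between log2(CPM + 1) of a member and the log2 macrophage marker sum was 0.92 for Fcgr3 (Spearman's coefficient 0.93), 0.92 for Fcer1g (Spearman's 0.92), 0.85 for Fcgr1 (Spearman's 0.83), 0.84 for Fcgr2b (Spearman's 0.85), 0.82 for Fcgr4 (Spearman's 0.81) and 0.74 for Fcgrt (Spearman's 0.74). The adjusted p over the 12 relations of both days (permutation test, 2-sided, Benjamini-Hochberg) was 4e-05 to 0.0019 for r and 6e-05 to 0.0026 for Spearman's coefficient, and 1e-05 was the smallest p the permutations could give. The libraries share the sort and amplification, and r stayed between 0.66 and 0.91 without the 2 libraries farthest from the median marker sum. In 8 males r was 0.68 to 0.91 (Spearman's 0.57 to 0.95) and in 8 females 0.62 to 0.96 (Spearman's 0.33 for Fcgrt and 0.83 to 1 for the other 5). The library with the lowest marker sum, immediate replicate 3 at 263 CPM, held 0 counts of Fcgr4, which allows up to 0.105 CPM, 1 count of Fcgr3 and 2 counts of Fcgr2b, and still held Fcer1g at 74.4 CPM and Fcgrt at 43.0 CPM. On day 14, over 15 libraries, r was 0.29 for Fcgr4 (Spearman's 0.24, adjusted permutation p = 0.29 for r) to 0.77 for Fcer1g (Spearman's 0.79, adjusted permutation p = 0.0016). Without the 2 farthest libraries it was 0.35 in place of 0.70 for Fcgr3, 0.38 in place of 0.68 for Fcgr1, 0.24 in place of 0.52 for Fcgr2b and -0.18 for Fcgr4, so that on day 14 the relation rested largely on those libraries for these 4 genes. For Fcer1g it was 0.52 in place of 0.77 and for Fcgrt 0.59 in place of 0.61. Within the sexes of day 14, r was 0.63 to 0.82 in 8 males (Spearman's 0.55 to 0.79), and in 7 females it was -0.33 for Fcgr4 (Spearman's -0.5) and 0.43 to 0.81 for the other 5 (Spearman's 0.21 to 0.82).

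**Figure D4:**
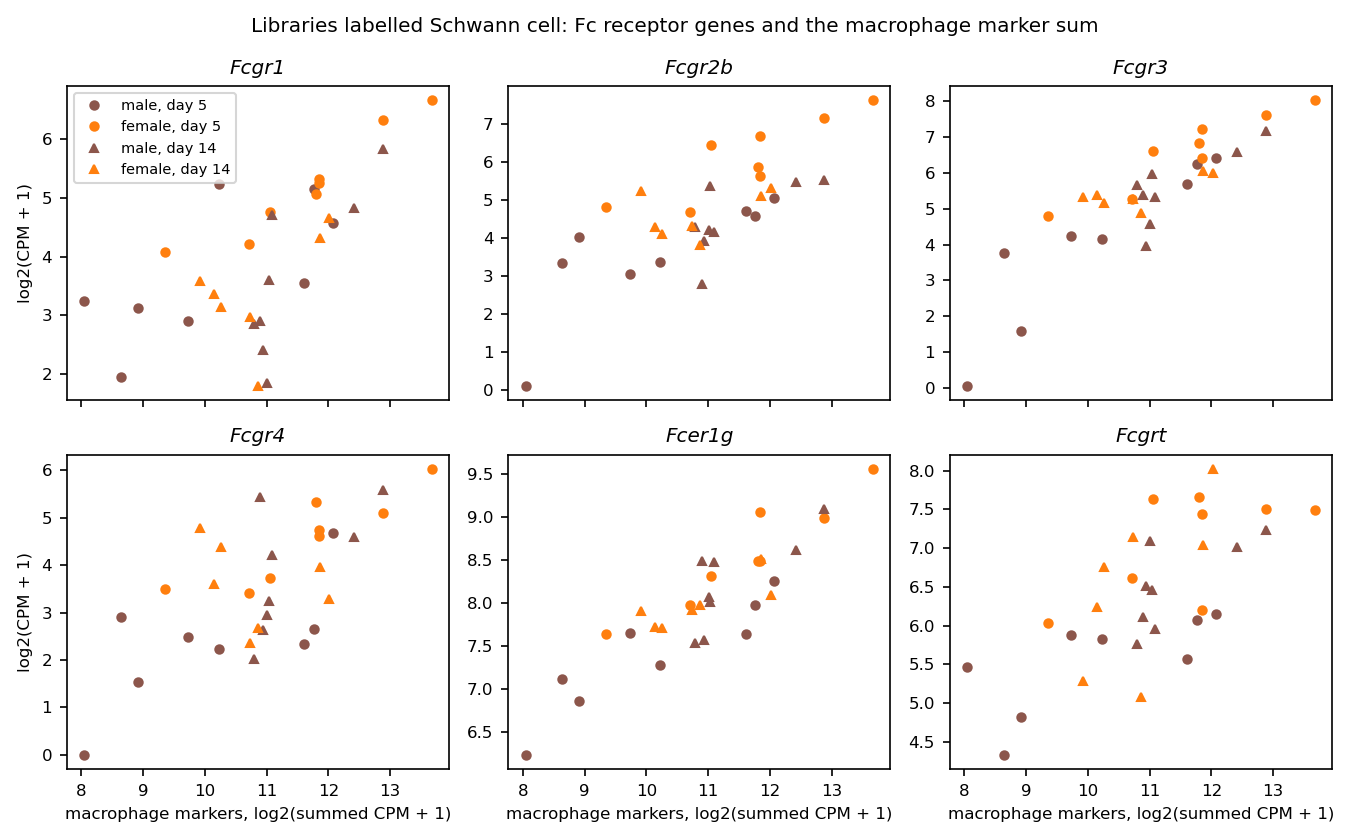
Libraries labelled Schwann cell: log2(CPM + 1) of each Fc receptor gene (vertical axis) against the log2 summed CPM of 12 macrophage markers (horizontal axis), 1 point a library, marked by sex and day. On day 5 the points rise together for all 6 genes (r of 0.74 to 0.92), and on day 14 they scatter more.

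No member passed the test between delayed and immediate repair in these libraries. On day 5, 0 of 9604 genes were called by edgeR, with 505 at an unadjusted p under 0.05 and 14, none of them a member, called by DESeq2. Fcer1g was 138 to 753 CPM (median 317) after delayed and 74.4 to 360 CPM (median 198) after immediate repair, a log2 difference of 0.78 (SE 0.34, adjusted p = 0.913), and was the 1 member with an unadjusted p under 0.05 (0.0335). Fcgr2b was 7.22 to 195 CPM (median 48.7) after delayed and 0.07 to 57.5 CPM (median 24.4) after immediate repair, a difference of 1.57 (SE 0.79). The macrophage marker sum in the same groups was 398 to 13048 CPM and 263 to 4304 CPM. On day 14, 0 of 10226 genes were called by edgeR, with 373 at an unadjusted p under 0.05 and 3 called by DESeq2, and no member was among either count. The member differences lay between -0.41 (SE 0.38) for Fcgr2b and 0.99 (SE 0.52) for Fcgr4.

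Between the days, 0 of 6 members were called after immediate repair by edgeR or DESeq2 and 0 had an unadjusted p under 0.05, where 3.81% of 10016 genes were called by edgeR. After delayed repair, 0 of 6 were called by edgeR, where 8.09% of 9961 genes were, and 1 member, Fcgr2b, had an unadjusted p under 0.05 (0.0083) and was called by DESeq2. No member had a repair difference that passed the test between the days (edgeR interaction, 0 of 10923 genes called, 524 at an unadjusted p under 0.05, Fcgr2b among them, and 9 called by DESeq2, no member among them). The Fcgr2b difference after delayed repair was -1.88 (SE 0.63, adjusted p = 0.0704), and it passed with DESeq2 (0.0128) and without delayed day 5 replicate 2 (0.0441). In the same comparison 11 of 12 macrophage markers had negative differences (median log2 -1.24, 0 called) and all 10 Schwann cell markers positive ones (median 2.12, 4 called), and the median of 4 tested fibroblast markers was 2.45 (0 called). With the macrophage marker level as a covariate the Fcgr2b difference was -0.98 (adjusted p = 0.0702), and the part of the other markers was not tested. Between the sexes, Fcgrt was called on day 5, at 19.1 to 70.1 CPM (median 51.2) in 8 males and 64.3 to 202 CPM (median 176) in 8 females. Its log2 difference was 1.36 (SE 0.31, adjusted p = 0.0173), where 7.02% of 9604 genes were called and 1.66% as higher. The call was lost without immediate replicate 5 (0.0528) and with the macrophage marker level as a covariate (0.309). That marker sum was 654 to 13048 CPM in the females and 263 to 4304 CPM in the males. All 6 members had positive differences between the sexes on day 5. Of these, 4 (Fcgrt, Fcer1g, Fcgr2b and Fcgr4) had an unadjusted p under 0.05 by edgeR, as did 21.1% of 9604 genes. On day 14, 0 of 6 members were called between the sexes, by edgeR or DESeq2 and 0 had an unadjusted p under 0.05, where 0.0391% of 10226 genes were called by edgeR.

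The genes whose levels varied most like each member were sought over the 32 macrophage libraries, among 8949 genes, by Pearson's r of log2 values centred on the 4 groups of repair and day. The libraries of a group share that centring and the sex difference of day 5, so r is a description. Fcgr4 and Fcgr1 ranked high for each other, at an r of 0.85. The first gene for Fcgr1 was Ms4a6c (0.87), a membrane protein gene of the MS4A family, and for Fcgr4 they were Sp110 (0.88), a nuclear body protein gene, and Psmb9 (0.86), a subunit gene of the immunoproteasome. Fcgr2b was the gene most like Fcgr3 (0.87), and the first for Fcgr2b was Maf (0.91), a transcription factor gene. Fcer1g was most like Tmsb4x (0.86), the thymosin β4 gene, and Fcgrt most like Rcn3 (0.92), a gene of the secretory pathway.

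With the sexes centred as well, Sp110, Tmsb4x and Rcn3 were still among the first 3 genes of their member, whereas Maf, Ms4a6c and Psmb9 were not, and the first gene was Evi2a for Fcgr2b (0.86), Phf11d for Fcgr1 (0.86) and Sp100 for Fcgr4 (0.85). Fcgr1 and Fcgr4 were still at 0.85 and Fcgr2b and Fcgr3 at 0.82, while Fcgr2b and Fcgr4 went from 0.80 to 0.58. Fcer1g was at 0.35 to 0.57 with the other 5 members before that step. Of these pairs, Fcgr2b and Fcgr3 are the one that shares the printed stretch of sequence.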

How the data were processed

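Macrophages, labelled Schwann cells and distal stump were measured by RNA-seq in 79 libraries, 32 mice. Per the study's methods and the labels, the authors trimmed single-end reads of 85 bases with cutadapt 1.8, aligned them to mm10 with TopHat2 2.1.1 and used Cufflinks 2.2.1 with UCSC genes. The program that wrote the deposited estimated counts is not given in the sources used here. Between 0.951% and 1.18% of those expected counts per library were not whole, and they were rounded. CPM values here use total counts, and the floor of 3 counts given for a count of 0 covers counting error only. Tests used edgeR 4.0.16 in R 4.3.3 (quasi-likelihood, TMM, a gene filter of 5 CPM in 6 or more of the libraries compared, Benjamini-Hochberg over all genes tested, threshold 0.05, 2-sided); the SE of a log2 difference was taken from the F statistic. DESeq2 1.42.0, library size scaling, filterByExpr, no filter, sex, macrophage marker score, replicate number and each library left out were alternatives. The members and lists were chosen with earlier results of these data known, and the sex comparisons after their values were seen. List genes were named by adjusted p, at most 8 per list among those called (some genes are not reported here), and the 3 genes most like each member by r. Correlations used 100000 permutations and a pseudocount of 1. Exon lengths and positions came from GENCODE (GRCm38) and promoters from RefSeq. The tests between repair groups and between the sexes were also run on simulated data, and no result of that run is used here. Labelled Schwann cell and macrophage libraries with the same number came from the same animal. Their deviations from the group means had a median r of 0.125 over 16 pairs on day 5 and 0.129 over 15 pairs on day 14, and the animal block changed no member call. No 2 libraries were identical.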

Additional observations from a re-analysis of the deposited data

Results flagged for a closer look

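Among 60 groups of 7 to 9 libraries, 1 for each gene, cell or tissue, day and repair, 6 held a library far from the others by Dixon's criterion, where chance gives about 1 in 20. Fcgr1 was 56.3 CPM in the labelled Schwann cell library of delayed day 14 replicate 4 (next 25.3 CPM), and in that library Fcgr3 was 144 CPM (next 65.7 CPM). Fcgr2b was 667 CPM in the macrophage library of delayed day 14 replicate 4 (next 358 CPM), which came from the same animal. Fcgr4 was 64.2 CPM in the labelled Schwann cell library of delayed day 5 replicate 9 (next 33.1 CPM). Fcer1g was 392 CPM in that of immediate day 14 replicate 3 (next 273 CPM), and Fcgrt was 202 CPM in that of immediate day 5 replicate 5 (next 96.6 CPM). In the same libraries the summed macrophage markers were 7546 CPM in labelled Schwann cell delayed day 14 replicate 4 (next in its group 3710 CPM), 13048 CPM in delayed day 5 replicate 9 (next 7533 CPM), 5469 CPM in immediate day 14 replicate 3 (next 4149 CPM) and 3570 CPM in immediate day 5 replicate 5, where another library of the group was higher (4304 CPM). The summed dendritic cell markers of macrophage delayed day 14 replicate 4 were 20304 CPM (next 12376 CPM). The part of these markers in the outlying values was not tested.

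The female minus male difference in macrophages changed between day 5 and day 14 by -1.26 for Fcgr2b and by -0.77 for Fcgr3 on the log2 scale (edgeR interaction, adjusted p = 0.0190 for both). For Fcgr2b the difference was 1.05 on day 5, with 9 of 9 females above every male, and -0.22 on day 14.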

How the results depend on the processing

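The calls of Fcgr2b, Fcgr4, Fcgr3 and Fcgr1 between the sexes in day 5 macrophages, of Fcgr2b and Fcgr3 for the sex by day interaction in macrophages, of Fcgr1 between the days in macrophages after immediate repair, and of the 4 tested members between labelled Schwann cell and macrophage libraries held under every alternative run for them. The others were limited as follows, and the cause was not tested. Fcgrt between the sexes in day 5 macrophages was lost with no filter (adjusted p = 0.0502) and with 7 of 17 libraries left out in turn. In the distal stump, 1 of the 2 member calls was left without a filter (Fcgr2b, adjusted p = 0.0566) and with the macrophage marker score, 1 to 3 when a library was left out and 0 with the replicate block (Fcer1g 0.83, adjusted p = 0.0639; Fcgr2b 0.76, adjusted p = 0.0771). With the marker score the stump differences of Fcgr3 (-0.066), Fcgr4 (-0.015) and Fcgrt (-6.2e-05) changed sign. In macrophages after immediate repair 2 members were called between the days with DESeq2, filterByExpr or sex as a covariate, and 1 to 2 with a library left out. After delayed repair it was 0 to 1. In day 5 libraries labelled Schwann cell the sexes gave 3 member calls with DESeq2 or without repair as a covariate, 2 with library size scaling, 0 with the marker score and 0 to 4 with a library left out. Between the days after delayed repair these libraries gave 1 member call with DESeq2 and 0 to 1 with a library left out. Signs also changed for Fcer1g between repair groups in day 5 macrophages with library size scaling (0.010), for Fcgr2b between the sexes in the stump without repair as a covariate (0.031) and with a library left out (-0.14 to 0.14), and for Fcgr4 between the sexes in day 14 macrophages with a library left out (-0.16 to 0.074). None of these was called.

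Counts over all genes moved by more than 1.5 times as follows. DESeq2 called 17 genes in day 5 and 10 (sex) in day 14 macrophages, 14 and 3 between repair groups in labelled Schwann cell libraries of day 5 and day 14, 891 between the days in macrophages after delayed repair, 950 and 1514 between the days in labelled Schwann cell libraries, 9 for each repair by day interaction, 1151 and 90 between the sexes in labelled Schwann cell libraries of day 5 and in the stump, and 460 for the sex by day interaction, which gave 52 with filterByExpr and 36 with no filter. Sex as a covariate gave 8 genes between repair groups in day 5 macrophages and 1 in day 5 labelled Schwann cell libraries. The marker score gave 54 genes between the sexes there. Library size scaling gave 1484 genes between the days in macrophages after immediate repair and 0 for their repair by day interaction. It moved the median difference of all genes by over 0.1 between labelled Schwann cell and macrophage libraries (from 0.05 to 0.30 on day 5 and from 0.11 to 0.48 on day 14), between the sexes in day 5 macrophages and labelled Schwann cell libraries, and between the days in macrophages after immediate repair and in labelled Schwann cell libraries, for the interactions of repair by day (from -0.002 to -0.116) and sex by day (from -0.013 to -0.122) in macrophages and for sex by day in labelled Schwann cell libraries (from -0.083 to -0.355). With a library left out, the counts ran from 1 to 3 (macrophages of day 5, repair), 0 to 1 (labelled Schwann cell libraries of day 5, repair), 222 to 638 and 359 to 1175 (those libraries between the days), 341 to 815 (those of day 5, sex) and 10 to 497 (sex by day). The replicate block gave 12 genes between repair groups in day 5 macrophages, 197 and 241 between the days in labelled Schwann cell libraries and changed no member call outside the stump. Samples with a shared number across repair groups or days did not all deviate together (r from -0.28 to 0.50 over pairs), and between 0 and 5 of the 7 or 8 libraries correlated best with their own number. Between repair groups in macrophages, 7 of 8 pairs on day 5 and 6 of 7 on day 14 were over 0.1 (median r 0.25 and 0.26, against -0.084 and -0.021 for other pairs). In the stump it was 1 of 7 (median -0.052). Counts of the members were at least 980 in every macrophage library, and at least 70 in every stump. A single count was at most 0.067 CPM in macrophage, 0.086 CPM in labelled Schwann cell and 0.256 CPM in stump libraries.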
